A study of Drosophila melanogaster with 16 samples.

Results

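This report compares larval central nervous systems (CNSs) of Drosophila melanogaster in which RNAi against ATF4 was added to pan-neuronal overexpression of TFAM with those in which TFAM was overexpressed (o/e) alone. The libraries were chosen by their titles, 4 of TFAM o/e with ATF4 RNAi and 4 of TFAM o/e, which are 8 of the 16 libraries of the series. The TFAM o/e, ATF4 RNAi larvae were nsybGal4>UAS-TFAM3M, UAS-ATF4 RNAi, and the TFAM o/e larvae were nsybGal4>UAS-TFAM3M. The other 8 libraries, 4 of ATF4 o/e (nsybGal4>UAS-ATF4-HA) and 4 of control (nsybGal4/+), are given beside the results where they show the level without TFAM o/e. All larvae carried the nsybGal4 driver, were raised on standard food at 25 degrees and were dissected at the wandering stage of the last larval instar, with 20 whole CNSs pooled in each replicate. The driver acts in neurons, but RNA came from the whole CNS, so that glia, progenitors and any attached tissue were measured too. In such bulk samples, fewer cells of a type and less RNA per cell cannot be told apart. The ATF4 RNAi genotype carried 1 more UAS transgene than TFAM o/e, and effects of the knockdown, of that transgene and of its genetic background cannot be told apart in these genotypes.

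TFAM packages mitochondrial DNA and is a factor in its transcription, and in excess it represses mitochondrial gene expression, which puts neurons under mitochondrial stress. ATF4, encoded by crc in the fly, is the transcription factor of the integrated stress response, in which kinases such as PEK and Gcn2 phosphorylate eIF2alpha and thereby favour translation of ATF4. Known ATF4 targets act in amino acid synthesis and uptake, in glycolysis and lactate production, and in the restraint of translation by Thor. The question of the comparison was which of these functional groups differed when ATF4 was knocked down during mitochondrial stress.

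Library totals were between 22454084 and 23931053 counts with ATF4 RNAi, between 20946531 and 24778270 in TFAM o/e and between 18215062 and 23628142 in control. Counts were scaled to library size as CPM, the standard unit of reads per gene relative to the library total, and 3 counts in a library, taken as the floor, corresponded to 0.119 to 0.15 CPM in the 8 libraries compared, which covers counting error only. Summed neuronal marker RNA (elav, nSyb, brp, Syt1 and fne) was 2730 to 3640 CPM with ATF4 RNAi and 2660 to 3740 CPM in TFAM o/e, and neuroblast marker RNA (dpn, mira, wor and ase) was 476 to 503 CPM with ATF4 RNAi and 478 to 504 CPM in TFAM o/e. Glial markers (repo, Gs2, Eaat1, moody and nrv2) reached 1070 to 1120 CPM with ATF4 RNAi and 828 to 1070 CPM in TFAM o/e. Markers of tissues that can stay attached varied more among libraries, with fat body at 47.1 to 155 CPM with ATF4 RNAi and 54.2 to 102 CPM in TFAM o/e, and muscle at 36.5 to 66.2 CPM with ATF4 RNAi and 22.4 to 58.7 CPM in TFAM o/e. Salivary gland markers were at 1.85 to 182 CPM with ATF4 RNAi and 0.551 to 182 CPM in TFAM o/e, and ring gland markers at 1.6 to 30.8 CPM with ATF4 RNAi and 1.85 to 45.1 CPM in TFAM o/e. Hemocyte markers summed to 5.48 to 9.7 CPM with ATF4 RNAi and 2.65 to 14.6 CPM in TFAM o/e, and the dosage compensation genes roX1, roX2 and msl-2 of males to 639 to 811 CPM with ATF4 RNAi and 428 to 884 CPM in TFAM o/e. None of these 39 marker genes tested was called between the genotypes by edgeR, and their part in the results below was not tested. All 5 glial markers had positive log2 fold changes, and Gs2, a glutamine synthetase, had 0.48 (edgeR adjusted p = 0.191). Gs2 was the 1 marker that DESeq2 called higher (adjusted p = 0.0049). It was also called when each library's slope of expression on exon length, its length slope, was a covariate (edgeR adjusted p = 0.0453). Control libraries had fat body markers at 115 to 436 CPM, muscle at 27.2 to 166 CPM and salivary gland at 0.944 to 34.5 CPM. All 5 fat body markers were lower than in control in both TFAM genotypes at an unadjusted edgeR p under 0.05. Their median log2 fold changes were -2.07 for TFAM o/e (1 called) and -1.58 for ATF4 RNAi (0 called). What part this had in comparisons with control was not tested.

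The transcripts that the transgenes act on were examined first. TFAM had 399, 487, 620 and 669 CPM in the 4 ATF4 RNAi libraries and 396, 682, 553 and 521 CPM in the 4 TFAM o/e libraries, against 70.2, 84.8, 139 and 93.7 CPM in control. Every library of both TFAM genotypes lay above every control library, and the genotypes with and without ATF4 RNAi overlapped fully. The log2 fold change of TFAM between them was 0.00 (95% interval -0.42 to 0.43). The ATF4 gene crc (FBgn0000370, 2L, 21310866 to 21319527 in the BDGP 6 annotation) had 148, 157, 165 and 156 CPM with ATF4 RNAi, 216, 242, 169 and 184 CPM in TFAM o/e and 196, 188, 227 and 202 CPM in control. In ATF4 o/e crc had 177, 187, 189 and 184 CPM, so that its counted RNA was not above control in that genotype. Each ATF4 RNAi library was below each library of TFAM o/e and control (exact permutation test against TFAM o/e, two-sided, p = 0.0286, the smallest that 4 against 4 allow), with means of 156 ± 6.89 CPM and 203 ± 32.6 CPM (SD, n = 4 each). Among all genes the difference did not pass (log2 fold change -0.38, standard error 0.11, edgeR adjusted p = 0.339), though it did with the length slope of each library as a covariate (edgeR adjusted p = 0.0378). Exons of crc overlap those of CG46314 on the same strand, and RNA of the whole CNS includes cells without the driver, so that this value does not measure how far ATF4 protein was reduced in neurons.

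Across the transcriptome, 52 of 9436 genes tested were called misregulated when ATF4 RNAi was added (0.551%), 30 lower (0.318%) and 22 higher (0.233%). The threshold was a Benjamini-Hochberg adjusted p of 0.05 in edgeR's quasi-likelihood test over all genes, together with a change of 1.2-fold or more. Nothing in the labels says whether the 4 RNA preparations of a genotype came from separate crosses, so the p-values measure the spread between these preparations, which may be technical. In each of the 52, the 4 libraries of one genotype lay entirely above the 4 of the other, as they did in 4.15% of all genes tested. An unadjusted p under 0.05 was found for 548 genes (5.81%), and the median log2 fold change over all genes was 0.00117. Counts in the gene lists below are to be set beside these shares, 0.551% called and 5.81% at an unadjusted p under 0.05. A short list without a called member is thus close to the share over all genes. The count of called genes was 31, 27 and 31 without ATF4 RNAi replicates 2, 3 and 4 and 34 without TFAM o/e replicate 1, and 18 of the 52 kept their call in every alternative that tested them. The change was at least 2-fold in 20 of the 30 lower genes and 18 of the 22 higher ones. Set beside control, the ATF4 RNAi libraries overlapped the control libraries in 22 of the 30 lower genes and in 4 of the 22 higher genes, and lay outside the control range in the other 8 and 18. The same test called 28 of 9355 genes between TFAM o/e and control (0.299%) and 53 of 9421 between ATF4 RNAi and control (0.563%). Genotypes without overlap between their libraries were seen in 3.46% and 3.59% of the genes of these 2 comparisons. Both share libraries with the first, so their values are only set side by side.

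Ldh, which reduces pyruvate to lactate and also makes L-2-hydroxyglutarate, was lower in every library with ATF4 RNAi. Ldh (FBgn0001258, 3L, 6259105 to 6262694) had 84.8, 90.4, 98.1 and 122 CPM with ATF4 RNAi, 382, 515, 306 and 443 CPM in TFAM o/e and 64.9, 88.6, 120 and 257 CPM in control. The highest ATF4 RNAi library was far below the lowest TFAM o/e library, and all 4 lay inside the control range. In ATF4 o/e Ldh had 37.7, 63.5, 37.1 and 45 CPM, below every library of the other genotypes. Ldh changed by -2.07 on the log2 scale (standard error 0.17, edgeR adjusted p = 0.000312), and the gene stayed called without any 1 of the 8 libraries. Between TFAM o/e and control, Ldh was higher by a log2 fold change of 1.62 but did not pass (edgeR adjusted p = 0.293), and control replicate 4 stood well above the other 3 controls. Without that library the value was 2.18 with an edgeR adjusted p of 0.0205. Without any other single library the edgeR adjusted p was 0.417 to 0.708. Of 18 alternatives, 3 called Ldh higher in TFAM o/e than in control, the removal of control replicate 4 among them.

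No other gene of the lactate and 2-hydroxyglutarate group was called. Over its 9 members tested the median log2 fold change was 0.05. D2hgdh, which oxidises D-2-hydroxyglutarate, had a log2 fold change of 0.35 (95% interval 0.08 to 0.62) and Gpdh1 of the glycerol phosphate shuttle 0.15 (95% interval -0.04 to 0.33); neither was called.

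Tret1-1, which carries trehalose, the main blood sugar of insects, into cells, was also lower with ATF4 RNAi. Tret1-1 (FBgn0050035, 2R, 11665768 to 11674782) had 47.5, 50.4, 45.9 and 51.7 CPM with ATF4 RNAi, 95.1, 118, 75.7 and 109 CPM in TFAM o/e and 39.3, 41.7, 46.4 and 67.4 CPM in control. The 4 ATF4 RNAi libraries spanned a narrow range inside that of control and below every TFAM o/e library. In ATF4 o/e Tret1-1 had 37.9, 48, 32.9 and 42.7 CPM, also below every TFAM o/e library. Tret1-1 changed by -1.03 on the log2 scale (standard error 0.13, edgeR adjusted p = 0.00549), against 1.01 for TFAM o/e over control (edgeR adjusted p = 0.122). The latter edgeR adjusted p was 0.038 without control replicate 4 and 0.163 to 0.401 without any other single library. Of 18 alternatives, 4 called Tret1-1 higher in TFAM o/e than in control, that removal among them. The gene lies within the span of Roc2, without overlap of their exons.

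Among 8 sugar and trehalose transport genes tested, Tret1-1 was the 1 called and the median log2 fold change was -0.24. That median was -0.07 over 11 genes without the filter on low counts, -0.08 over 7 genes with an FPKM of at least 1. Without single libraries it was -0.27 to -0.09, and -0.09 was the value without TFAM o/e replicate 3. The sugar transporter nebu had 335, 305, 337 and 309 CPM with ATF4 RNAi, 448, 447, 376 and 428 CPM in TFAM o/e and 281, 286, 253 and 295 CPM in control. MFS3, of the same superfamily of transporters, had 127, 145, 133 and 131 CPM with ATF4 RNAi, 175, 197, 155 and 212 CPM in TFAM o/e and 109, 128, 102 and 259 CPM in control. In ATF4 o/e nebu had 284, 290, 264 and 268 CPM and MFS3 96.7, 143, 84 and 99.1 CPM. For both genes the ATF4 RNAi and TFAM o/e libraries did not overlap, but neither passed the test over all genes, with log2 fold changes of -0.41 (edgeR adjusted p = 0.158) and -0.47 (edgeR adjusted p = 0.187). Both were called lower with the length slope as a covariate (edgeR adjusted p = 0.0222 and 0.0462). The fit of all 16 libraries also called nebu lower (edgeR adjusted p = 0.0254). 

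None of 12 glycolytic enzyme genes tested was called by edgeR, beside 0.551% of all genes. At an unadjusted p under 0.05, found in 5.81% of all genes, 2 were lower. Their median log2 fold change was -0.07, with 7 negative and 5 positive values. Hex-A, the hexokinase that commits glucose to glycolysis, had 246, 206, 198 and 198 CPM with ATF4 RNAi, 410, 320, 244 and 419 CPM in TFAM o/e and 177, 187, 108 and 278 CPM in control. The highest ATF4 RNAi library of Hex-A was just above the lowest TFAM o/e library, with a log2 fold change of -0.72 and an edgeR adjusted p of 0.191. In ATF4 o/e Hex-A had 169, 180, 159 and 166 CPM, within the control range. Phosphofructokinase, Pfk, had 252, 223, 221 and 223 CPM with ATF4 RNAi and 297, 288, 236 and 348 CPM in TFAM o/e, with a log2 fold change of -0.35 (95% interval -0.63 to -0.07). Malic enzyme, Men, which makes NADPH, had a log2 fold change of -0.33 (edgeR adjusted p = 0.299). CG8036, a transketolase of the pentose phosphate pathway, moved the other way, with 479, 410, 434 and 419 CPM with ATF4 RNAi, 298, 271, 273 and 319 CPM in TFAM o/e and 311, 327, 224 and 389 CPM in control. CG8036 changed by 0.58 on the log2 scale (standard error 0.10, edgeR adjusted p = 0.0409), a call that was lost without any 1 of 7 of the 8 libraries (edgeR adjusted p of up to 0.168), and its exons overlap those of p on the other strand. None of the 16 genes of the TCA cycle tested was called by edgeR or DESeq2, and 0 had an unadjusted p under 0.05 in edgeR (median 0.01). DESeq2, which called 156 genes in the same comparison, placed nebu, MFS3, Hex-A and Men among its lower genes, as well as AsnS and sbm of the amino acid groups below.

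**Figure D1:**
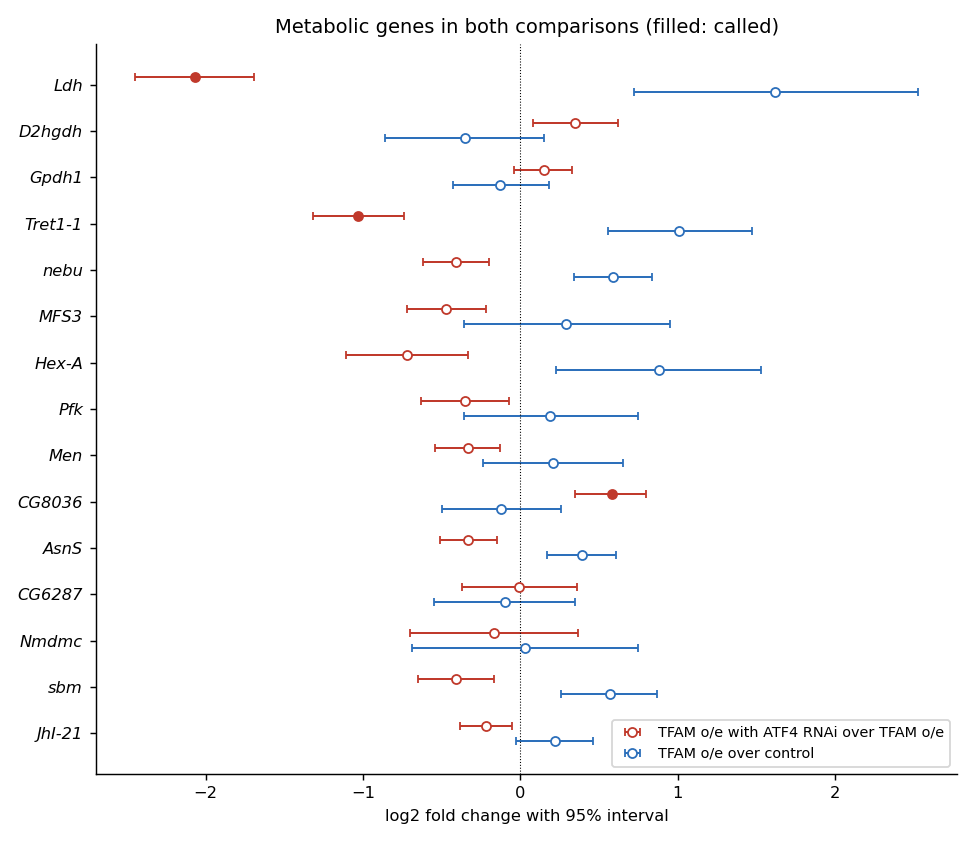
Log2 fold changes (points) with 95% intervals (bars) of 15 metabolic genes, for TFAM o/e with ATF4 RNAi over TFAM o/e (red) and TFAM o/e over control (blue), each on its own 8 libraries with 4 shared. Ldh at -2.07 and Tret1-1 at -1.03 were called lower with ATF4 RNAi and CG8036 at 0.58 higher (filled). The red intervals of Gpdh1, CG6287 and Nmdmc include 0, as do several of the blue ones.

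Thor, the fly 4E-BP that binds eIF4E and restrains cap-dependent translation, was the called member of the integrated stress response group. Thor (FBgn0261560, 2L, 3478434 to 3479612) had 7.3, 4.8, 6.56 and 10.8 CPM with ATF4 RNAi, 44.8, 33.7, 32.3 and 28.5 CPM in TFAM o/e, 40.4, 48.4, 47.5 and 45.2 CPM in ATF4 o/e and 18.3, 6.42, 14.4 and 11.8 CPM in control. Every ATF4 RNAi library was far below every library of TFAM o/e and ATF4 o/e and within or under the control range. Thor changed by -2.25 on the log2 scale (standard error 0.23, edgeR adjusted p = 0.00146). Between TFAM o/e and control, Thor was higher by a log2 fold change of 1.43 but was not called (edgeR adjusted p = 0.154). Without single libraries that adjusted p was 0.118 to 0.436, and 2 of 18 alternatives called the gene. Of the 9 genes of the group tested, Thor was the 1 called, and the median was -0.12. The eIF2alpha kinases PEK (-0.12, 95% interval -0.31 to 0.06) and Gcn2 (-0.11, 95% interval -0.38 to 0.16) were not called.

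The amino acid side of the response showed small differences in single genes. AsnS, asparagine synthetase, had 73.5, 72.2, 81.9 and 73.7 CPM with ATF4 RNAi, 92.9, 105, 91 and 87.5 CPM in TFAM o/e, 90.6, 100, 88.8 and 98.9 CPM in ATF4 o/e and 69.8, 65.6, 70 and 78.7 CPM in control. The ATF4 RNAi libraries lay below all TFAM o/e and ATF4 o/e libraries, with a log2 fold change of -0.33 and an edgeR adjusted p of 0.207. With the length slope as a covariate AsnS was called lower with ATF4 RNAi (edgeR adjusted p = 0.0142). CG6287, a phosphoglycerate dehydrogenase that starts serine synthesis, and Nmdmc, a mitochondrial folate enzyme, had log2 fold changes of -0.01 (95% interval -0.37 to 0.36) and -0.17 (95% interval -0.70 to 0.37). Without that covariate, none of the 11 serine, one-carbon and asparagine genes tested was called by edgeR (median -0.01). Nor were any of 9 amino acid transporters (median -0.06) or of 20 cytosolic aminoacyl-tRNA synthetases (median -0.11, 16 of 20 negative). At an unadjusted p under 0.05, found in 5.81% of all genes tested, 1, 2 and 2 genes of these lists were lower. The amino acid transporter sbm had 251, 261, 266 and 260 CPM with ATF4 RNAi, 345, 385, 278 and 362 CPM in TFAM o/e and 197, 237, 234 and 249 CPM in control. All 4 ATF4 RNAi libraries of sbm were below all 4 of TFAM o/e, with a log2 fold change of -0.41 and an edgeR adjusted p of 0.235. In ATF4 o/e sbm had 206, 262, 237 and 251 CPM, also below all TFAM o/e libraries. With the length slope as a covariate sbm was called lower with ATF4 RNAi (edgeR adjusted p = 0.0416).

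Genes of the chaperone groups gave 3 called falls. Hsc70-2, of the Hsp70 family, had 0.462, 0.0827, 0.357 and 0.864 CPM with ATF4 RNAi, 13, 18.3, 18 and 21.9 CPM in TFAM o/e, 0.0849, 0.29, 0.298 and 0.261 CPM in ATF4 o/e and 0.125, 0.182, 0.708 and 0.227 CPM in control. Hsc70-2 thus stayed under 1 CPM in every library but those of TFAM o/e. Hsc70-2 changed by -5.35 on the log2 scale (standard error 0.43, edgeR adjusted p = 0.000281), against 5.89 for TFAM o/e over control (edgeR adjusted p = 0.00186). Of the 8 genes of the Hsp70 and Hsp90 group tested, Hsc70-2 was the 1 called (median -0.07). Hsp70Bb, a stress-inducible Hsp70, differed from it, with 132, 196, 180 and 194 CPM with ATF4 RNAi, 113, 167, 87.3 and 88.4 CPM in TFAM o/e, 62.6, 73.3, 94.3 and 92.4 CPM in ATF4 o/e and 26.8, 31.6, 12.2 and 21.6 CPM in control. Hsp70Bb was thus above every control library in each of the other genotypes, also in ATF4 o/e without TFAM o/e. It was called higher in TFAM o/e than in control (log2 fold change 2.28, edgeR adjusted p = 0.0227) and was not called when ATF4 RNAi was added (0.62, 95% interval 0.16 to 1.08), except without TFAM o/e replicate 2, where the edgeR adjusted p was 0.0389. The Hsp70 copies are nearly identical in sequence, so that their reads may have been split or dropped in counting.

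Hsp26, a small heat shock protein, had 142, 190, 175 and 148 CPM with ATF4 RNAi, 282, 319, 276 and 230 CPM in TFAM o/e and 265, 240, 248 and 115 CPM in control. All ATF4 RNAi libraries were below all TFAM o/e libraries, and 3 of the 4 controls lay within the TFAM o/e range. Hsp26 changed by -0.76 on the log2 scale (standard error 0.13, edgeR adjusted p = 0.032), a call lost without any 1 of 5 libraries (edgeR adjusted p of up to 0.116). Of 7 small heat shock genes tested, 1 was called and the median was -0.22. Cnx14D, a calnexin homologue of the ER, was called among 14 genes of the ER unfolded protein response (median -0.13, 12 of 14 negative). The ER chaperone Hsc70-3 (-0.27, 95% interval -0.54 to 0.00) and the sensor Ire1 (-0.23, 95% interval -0.41 to -0.04) were not called. None of the 12 mitochondrial chaperones and proteases tested was called by edgeR or DESeq2 (median -0.01, 2 lower at an unadjusted p under 0.05 in edgeR).

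Further genes were high in TFAM o/e and near the control level with ATF4 RNAi. Dgp-1, which encodes a GTP-binding protein, had 71.8, 68.9, 76 and 79.4 CPM with ATF4 RNAi, 134, 224, 122 and 150 CPM in TFAM o/e and 70.7, 70.6, 95.5 and 84.4 CPM in control, so that the ATF4 RNAi libraries overlapped control and all were below TFAM o/e. Dgp-1 changed by -1.09 on the log2 scale (standard error 0.17, edgeR adjusted p = 0.0209), with the call lost without any 1 of the 4 ATF4 RNAi libraries (edgeR adjusted p of up to 0.0958). Inos, the synthase that starts inositol production, had 112, 104, 110 and 110 CPM with ATF4 RNAi, 144, 152, 140 and 151 CPM in TFAM o/e and 104, 107, 94.5 and 126 CPM in control. The TFAM o/e libraries of Inos lay above all others, by a small margin (a log2 fold change of -0.43 and an edgeR adjusted p of 0.0341), and 7 of the 8 removals of a library ended that call (edgeR adjusted p of up to 0.177). CG6428 had 16, 15.5, 15.4 and 14.9 CPM with ATF4 RNAi, 27.3, 24.9, 23.5 and 30.2 CPM in TFAM o/e and 15, 15.1, 12.8 and 17.8 CPM in control, with a log2 fold change of -0.78 (edgeR adjusted p = 0.0094; 0.054 without ATF4 RNAi replicate 3). None of the 3 genes was called between TFAM o/e and control (edgeR adjusted p = 0.154 for Dgp-1, 0.322 for Inos and 0.0832 for CG6428). In all 3 the ATF4 RNAi libraries overlapped those of control. Over all genes tested, ATF4 RNAi and control libraries lacked overlap in 3.59%, so that overlap is the usual outcome.

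**Figure D2:**
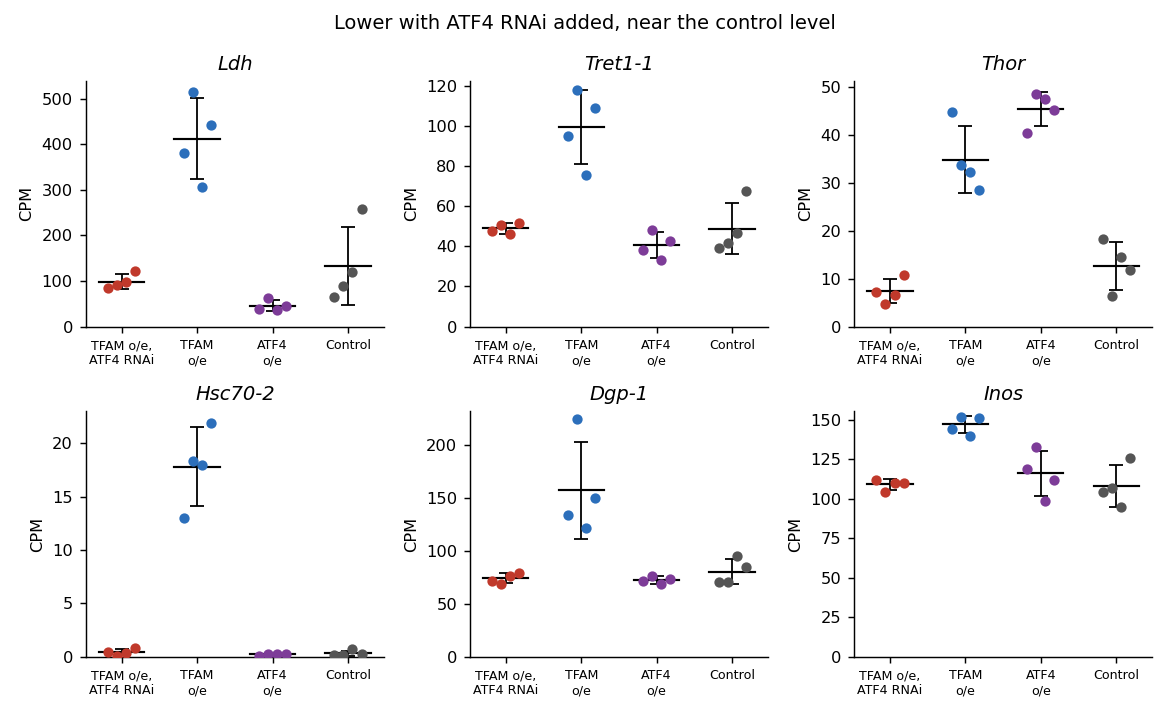
CPM (vertical axis) of Ldh, Tret1-1, Thor, Hsc70-2, Dgp-1 and Inos in the 4 libraries (points) of each genotype, with mean and SD (bars). In all 6 genes every ATF4 RNAi library is below every TFAM o/e library and the ATF4 RNAi libraries overlap those of control, while Thor alone of the 6 is also high in ATF4 o/e.

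A set of genes was detected above the floor almost only in TFAM o/e. CG11634 had 1.38, 1.3, 1.74 and 1.38 CPM in TFAM o/e and 0 counts in all ATF4 RNAi and control libraries, so that it was at least 11.2-fold lower with ATF4 RNAi than in TFAM o/e (against 3 counts per library). The gustatory receptor gene Gr58c had 0 counts in all ATF4 RNAi libraries and 1.12, 0.902, 0.791 and 0.878 CPM in TFAM o/e, at least 7.09-fold lower. The noncoding lncRNA:CR46123 had 1 count in all ATF4 RNAi libraries together and 3.7, 2.56, 5.54 and 2.76 CPM in TFAM o/e, where its summed count was higher by 343-fold (95% counting interval 61.2 to 13600). Each of these 3 was called (edgeR adjusted p = 0.0013, 0.0034 and 0.000218 in that order), also without any 1 of the 8 libraries.

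lncRNA:CR44138 had 0.168, 0.0413, 0.134 and 0.0454 CPM with ATF4 RNAi, 6.28, 8.32, 4.23 and 6.35 CPM in TFAM o/e and 0.0834, 0.0911, 0.236 and 0 CPM in control (-5.94 on the log2 scale, edgeR adjusted p = 7.05e-05). CG15731 had 0.168, 0.0413, 0.0892 and 0.0454 CPM with ATF4 RNAi, 2.71, 3.11, 1.58 and 2.47 CPM in TFAM o/e and 0.0417, 0.0455, 0.177 and 0.0907 CPM in control (-4.75, edgeR adjusted p = 0.000407). In both, ATF4 RNAi and control libraries were near the floor and TFAM o/e libraries clear of it. The gene thw, which encodes a zona pellucida domain protein, had 3.32, 1.78, 2.01 and 1.95 CPM with ATF4 RNAi, 22.1, 15.8, 12.9 and 14.3 CPM in TFAM o/e and 2.79, 2.69, 1.06 and 4.13 CPM in control, with no overlap between TFAM o/e and the others. thw changed by -2.84 on the log2 scale (standard error 0.25, edgeR adjusted p = 0.000474). CG6602 had 1.01, 1.32, 1.2 and 0.864 CPM with ATF4 RNAi, 3.36, 3.06, 3.08 and 2.93 CPM in TFAM o/e and 1.13, 1.37, 1.65 and 0.952 CPM in control, a log2 fold change of -1.50 (edgeR adjusted p = 0.00688), and its exons overlap CG13295. Among the other called falls, lncRNA:dntRL, CG10472, m, CG4630, CG42240, Dtg and CG17684 had log2 fold changes between -2.44 and -0.64, with ATF4 RNAi libraries overlapping control, and each was lost without some single library (edgeR adjusted p of up to 0.181).

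In 8 of the 30 lower genes the ATF4 RNAi libraries lay below all control libraries as well as below TFAM o/e. Cnx14D (X, 16522967 to 16525415, within the span of para) had 0.252, 0.289, 0.223 and 0.182 CPM with ATF4 RNAi, 1.2, 2.1, 3.76 and 2.13 CPM in TFAM o/e, 0.255, 0.496, 0.511 and 0.261 CPM in ATF4 o/e and 2.96, 2.6, 2.83 and 3.49 CPM in control. TFAM o/e and control overlapped, and ATF4 RNAi and ATF4 o/e were both low. Cnx14D changed by -3.26 on the log2 scale (standard error 0.40, edgeR adjusted p = 0.00478), and by -3.64 when compared with control (edgeR adjusted p = 0.000263). CG6654, whose exons overlap Mau2 on the other strand, had 27.3, 27.5, 28.5 and 29.2 CPM with ATF4 RNAi, 52.4, 47.9, 53.2 and 51.1 CPM in TFAM o/e, 28.5, 31.5, 25.5 and 26.5 CPM in ATF4 o/e and 49.4, 49.5, 47 and 53.7 CPM in control. Its 4 genotypes thus formed a low and a high pair with no overlap between them (a log2 fold change of -0.87 and an edgeR adjusted p of 0.000474).

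Pastrel (pst), known for resistance to viruses, showed the same arrangement, with 30.6, 29.9, 33.7 and 31.9 CPM with ATF4 RNAi, 59.2, 61.7, 46.8 and 56.4 CPM in TFAM o/e, 22, 23.5, 27 and 19.9 CPM in ATF4 o/e and 57, 61.3, 68.4 and 72.7 CPM in control (a log2 fold change of -0.84 and an edgeR adjusted p of 0.0034). Apl was at 8.14 ± 0.307 CPM with ATF4 RNAi, 13.1 ± 1.27 CPM in TFAM o/e, 7.78 ± 0.568 CPM in ATF4 o/e and 13.1 ± 1 CPM in control (SD, n = 4 each). CG12592, in contrast, was low with ATF4 RNAi and not in ATF4 o/e, with 0.756, 1.12, 0.713 and 0.909 CPM with ATF4 RNAi, 4.6, 3.06, 3.91 and 2.72 CPM in TFAM o/e, 4.54, 4.09, 4.13 and 4.96 CPM in ATF4 o/e and 3, 2.46, 1.95 and 2.13 CPM in control (a log2 fold change of -2.03 and an edgeR adjusted p of 0.0044). CG7386 was likewise low with ATF4 RNAi alone, at 4.62 ± 0.478 CPM with ATF4 RNAi, 9.46 ± 1.39 CPM in TFAM o/e, 9.44 ± 0.639 CPM in ATF4 o/e and 10.6 ± 1.51 CPM in control. CG9304 was at 33.9 ± 1.44 CPM with ATF4 RNAi, 53.9 ± 3.54 CPM in TFAM o/e, 48.3 ± 2.92 CPM in ATF4 o/e and 48.5 ± 4.52 CPM in control. The serine protease gene CG9733 completed the set (a log2 fold change of -1.26 and an edgeR adjusted p of 0.045). Among these 8, CG7386 was not called without ATF4 RNAi replicate 2 or 3, Apl without 7 of the 8 libraries and CG9733 without any of the 8 (edgeR adjusted p of up to 0.0603, 0.127 and 0.177 in that order).

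**Figure D3:**
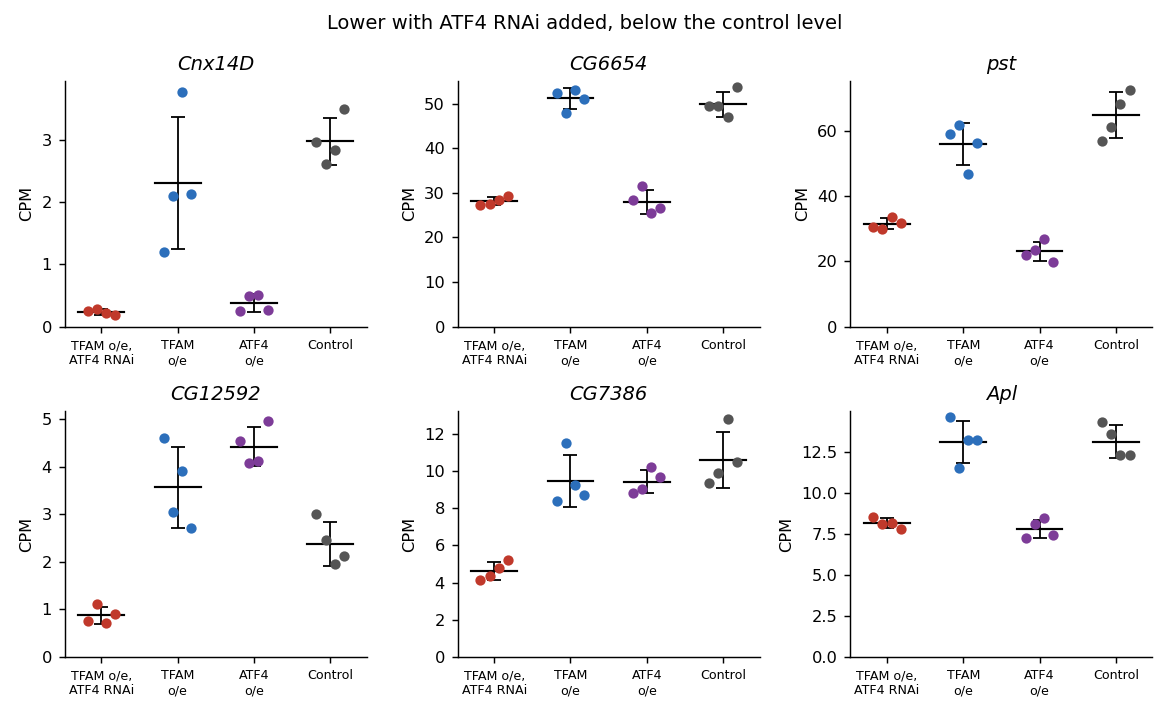
CPM (vertical axis) of Cnx14D, CG6654, pst, CG12592, CG7386 and Apl in the 4 libraries (points) of each genotype, with mean and SD (bars). The ATF4 RNAi libraries are below all TFAM o/e and control libraries in each gene, and ATF4 o/e is also low for Cnx14D, CG6654, pst and Apl but not for CG12592 and CG7386.

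No nuclear gene for respiratory chain subunits or for ribosomal proteins was called by edgeR. Of 71 mitochondrial ribosomal protein genes tested, 66 had a positive log2 fold change (median 0.18), as did all 32 complex I subunits (median 0.16), 30 of 33 subunits of complexes II to V (median 0.14) and all 84 cytosolic ribosomal protein genes (median 0.20). Leaving out single libraries moved these 4 medians between 0.07 and 0.35, 0.03 and 0.36, 0.04 and 0.27 and 0.06 and 0.41 in the order given. The slope of expression on exon length differed among libraries, at 0.480 to 0.725 with ATF4 RNAi, 0.436 to 0.742 in TFAM o/e and 0.198 to 0.746 in control. With this slope as a covariate the 4 medians were 0.08, 0.08, 0.05 and 0.08, beside 0.01 over all genes. At an unadjusted p under 0.05, 1 mitochondrial and 1 cytosolic ribosomal protein gene were higher, and 1 mitochondrial ribosomal protein gene and 1 subunit of complexes II to V were lower. mRpL37, 1 of the 5 mitochondrial ribosomal protein genes with a negative value, had 42.8, 42.8, 48.1 and 50.5 CPM with ATF4 RNAi and 64.2, 83.7, 63.4 and 52.5 CPM in TFAM o/e, which did not overlap (a log2 fold change of -0.52 and an edgeR adjusted p of 0.198). It was called lower by DESeq2 (adjusted p = 0.0232) and with the slope as a covariate (edgeR adjusted p = 0.00198). That covariate fit also called mRpL20 higher (0.27, edgeR adjusted p = 0.0471). By edgeR no member was called among 33 proteasome subunits (median 0.00), 19 autophagy genes (median -0.07), 14 antioxidant enzymes (median 0.04), 42 cytochrome P450 genes (median 0.08), 12 ecdysone response genes (median -0.26, 11 of 12 negative) or 3 antimicrobial peptide genes (median -0.07). At an unadjusted p under 0.05, found in 5.81% of all genes tested, 4 P450 genes were higher and 3 lower. By the same measure 3 ecdysone response genes were lower, 1 antioxidant gene was higher and 1 lower, and 1 antimicrobial peptide gene was higher. DESeq2 called the P450 genes Cyp9f3 (-0.43, adjusted p = 0.00194) and Cyp6d4 (-0.48, adjusted p = 0.0257) lower and Cyp28a5 higher (1.09, adjusted p = 0.0263). It also called Men of the antioxidant list lower (adjusted p = 0.019). Cyp9f3 and Men were also called lower with the length slope as a covariate (edgeR adjusted p = 0.0244 and 0.0301). Cyp9f3 was called lower in the fit of all 16 libraries (edgeR adjusted p = 0.0282) and Cyp28a5 higher without TFAM o/e replicate 4 (edgeR adjusted p = 0.03). The ecdysone median was -0.14 with the slope and -0.33 to -0.15 without single libraries. The -0.15 was the value without ATF4 RNAi replicate 4. Of 316 long noncoding RNAs tested, 2 were called higher and 3 lower (median 0.06). The 9 activity and JNK response genes held no member called by edgeR or DESeq2 either (median -0.02, with 1 higher and 1 lower at an unadjusted p under 0.05). Arc1 of that group, which forms RNA-carrying capsids at synapses, had 252, 201, 243 and 275 CPM with ATF4 RNAi, 281, 218, 228 and 304 CPM in TFAM o/e and 108, 85.4, 110 and 94.4 CPM in control. Both TFAM genotypes lay above control without overlap and overlapped each other (-0.09, 95% interval -0.40 to 0.21).

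**Figure D4:**
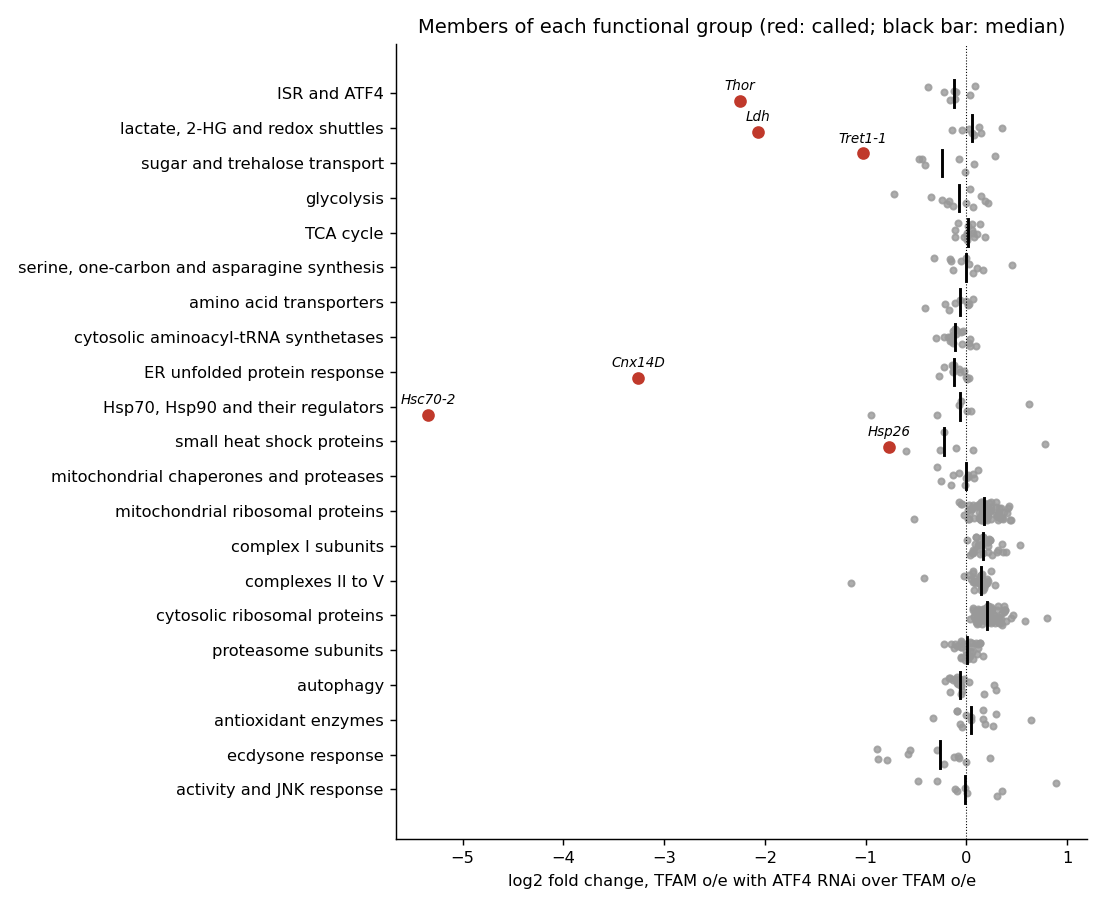
Log2 fold change of TFAM o/e with ATF4 RNAi over TFAM o/e (horizontal axis) for each gene tested in 21 functional groups (grey points; red and named where called; black bar, median of the group). The 6 called members (Thor, Ldh, Tret1-1, Cnx14D, Hsc70-2 and Hsp26) are in 6 different groups and each is the lowest value of its group, and the group medians are between -0.26 and 0.20.

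Of the 22 genes higher with ATF4 RNAi, 2 are pigment genes used as markers of transgenes. Yellow (y), needed for dark cuticle pigment, had 61.7, 77.7, 77.2 and 55.6 CPM with ATF4 RNAi, 2.84, 3.51, 1.98 and 2.55 CPM in TFAM o/e and 1.67, 1.59, 0.885 and 1.81 CPM in control. Vermilion (v), the tryptophan dioxygenase of the brown eye pigment pathway, had 6.51, 6.82, 7.67 and 11.3 CPM with ATF4 RNAi, 0.172, 0.1, 0.277 and 0.209 CPM in TFAM o/e and 0.25, 0.0911, 0.295 and 0.0907 CPM in control. Both were high in all 4 ATF4 RNAi libraries and in no library of another genotype (a log2 fold change of 4.65 and an edgeR adjusted p of 4.39e-06 for y, and a log2 fold change of 5.33 and an edgeR adjusted p of 2.84e-05 for v). The eye colour genes w (log2 fold change 0.02) and ry (0.14), also used as markers, were not called. Whether the RNA of y and v came from the inserted transgene was not tested.

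Another set was at or near the floor in TFAM o/e and control and clear of it with ATF4 RNAi. The gene sordd2 (X, 15796908 to 15799162) had 13.1, 15.7, 14.9 and 15.5 CPM with ATF4 RNAi, 13.8, 16.5, 12 and 17.9 CPM in ATF4 o/e and 0 counts in all TFAM o/e and control libraries, at least 113-fold higher than in TFAM o/e. CR44383, a pseudogene 11 bases away, had 3.61, 3.72, 4.15 and 5.14 CPM with ATF4 RNAi, 4.33, 4.59, 3.19 and 5.66 CPM in ATF4 o/e and at most 3 counts in a TFAM o/e library, a ratio of ATF4 RNAi to TFAM o/e of 54.6-fold (95% counting interval 26.2 to 137). Both were thus present in the 2 genotypes with an ATF4 transgene and at the floor in the others.

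The pair-rule gene ftz, a homeobox factor of the embryo, had 2.06, 2.44, 2.27 and 2.5 CPM with ATF4 RNAi and at most 3 counts in a TFAM o/e library, a ratio of 21.4-fold (95% counting interval 11.4 to 45.3), with 0.0424, 0.331, 0.128 and 0.131 CPM in ATF4 o/e. The ratio was 18.5-fold (95% counting interval 6.93 to 69.7) for lncRNA:CR45364 and 35.5-fold (95% counting interval 9.47 to 299) for lncRNA:CR45570, whose TFAM o/e libraries held 4 and 2 counts in all. The pseudogene CR33294 had 2.77, 2.94, 2.23 and 1.82 CPM with ATF4 RNAi and 0.301, 0.1, 0.0791 and 0.0836 CPM in TFAM o/e. These 4 were above 0.4 CPM in each ATF4 RNAi library, and all other libraries lay below those of ATF4 RNAi. The intervals cover counting error only. The edgeR adjusted p was 2.76e-05 for sordd2, 0.000183 for CR44383, 2.84e-05 for ftz and 0.00109 for CR33294, and these 4 calls held under all alternatives. lncRNA:CR45570, whose exons overlap a roo element, held as well, and lncRNA:CR45364 was lost without replicate 4 of either genotype (edgeR adjusted p = 0.0612 without that of ATF4 RNAi and 0.0553 without that of TFAM o/e).

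Genes that were also detected in TFAM o/e rose as well. Mocs1, which acts in molybdenum cofactor synthesis and whose exons overlap Pfdn2, had 28.9, 27.2, 26 and 24.5 CPM with ATF4 RNAi, 13.4, 10.8, 10.8 and 13.8 CPM in TFAM o/e and 11.1, 10.2, 8.02 and 15.6 CPM in control, with the ATF4 RNAi libraries above all others (a log2 fold change of 1.12 and an edgeR adjusted p of 0.0023). GstT3, a glutathione transferase, had 15.3, 19.7, 23.1 and 24.1 CPM with ATF4 RNAi, 8.13, 10.6, 10.7 and 7.36 CPM in TFAM o/e and 7.46, 8.43, 10.4 and 7.66 CPM in control, again without overlap (a log2 fold change of 1.15 and an edgeR adjusted p of 0.0176). IntS12, a subunit of the Integrator complex that processes small nuclear RNAs, had 26.3, 25.3, 28 and 33.5 CPM with ATF4 RNAi, 13.4, 17.9, 14.9 and 12.8 CPM in TFAM o/e, 25.1, 24.2, 22.2 and 27 CPM in ATF4 o/e and 14.5, 14, 16.8 and 15.2 CPM in control. IntS12 was thus high in both genotypes with an ATF4 transgene (a log2 fold change of 0.93 and an edgeR adjusted p of 0.011). The same held for hng3, with 26.9, 35.3, 38.3 and 47.2 CPM with ATF4 RNAi, 11.5, 19, 13.6 and 12.5 CPM in TFAM o/e, 32.9, 36.5, 31.9 and 36.1 CPM in ATF4 o/e and 12.7, 13, 27.3 and 15.8 CPM in control, where 1 control library overlapped (a log2 fold change of 1.37 and an edgeR adjusted p of 0.0115). CG7720 was at 9.86 ± 3.39 CPM with ATF4 RNAi, 3.29 ± 0.492 CPM in TFAM o/e, 11.4 ± 2.53 CPM in ATF4 o/e and 2.11 ± 1.07 CPM in control (SD, n = 4 each). CG3339, a dynein heavy chain gene, was at 1.27 ± 0.21 CPM with ATF4 RNAi, 0.273 ± 0.126 CPM in TFAM o/e, 1.64 ± 0.428 CPM in ATF4 o/e and 0.192 ± 0.13 CPM in control. Of these 6 genes Mocs1 kept its call in all alternatives, whereas GstT3 was lost without any 1 of 5 libraries, IntS12 without ATF4 RNAi replicate 3, hng3 without replicate 3 of either genotype, CG7720 without any of 7 and CG3339 without any of 5 (edgeR adjusted p of up to 0.0874, 0.054, 0.0558, 0.115 and 0.0932 in that order).

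**Figure D5:**
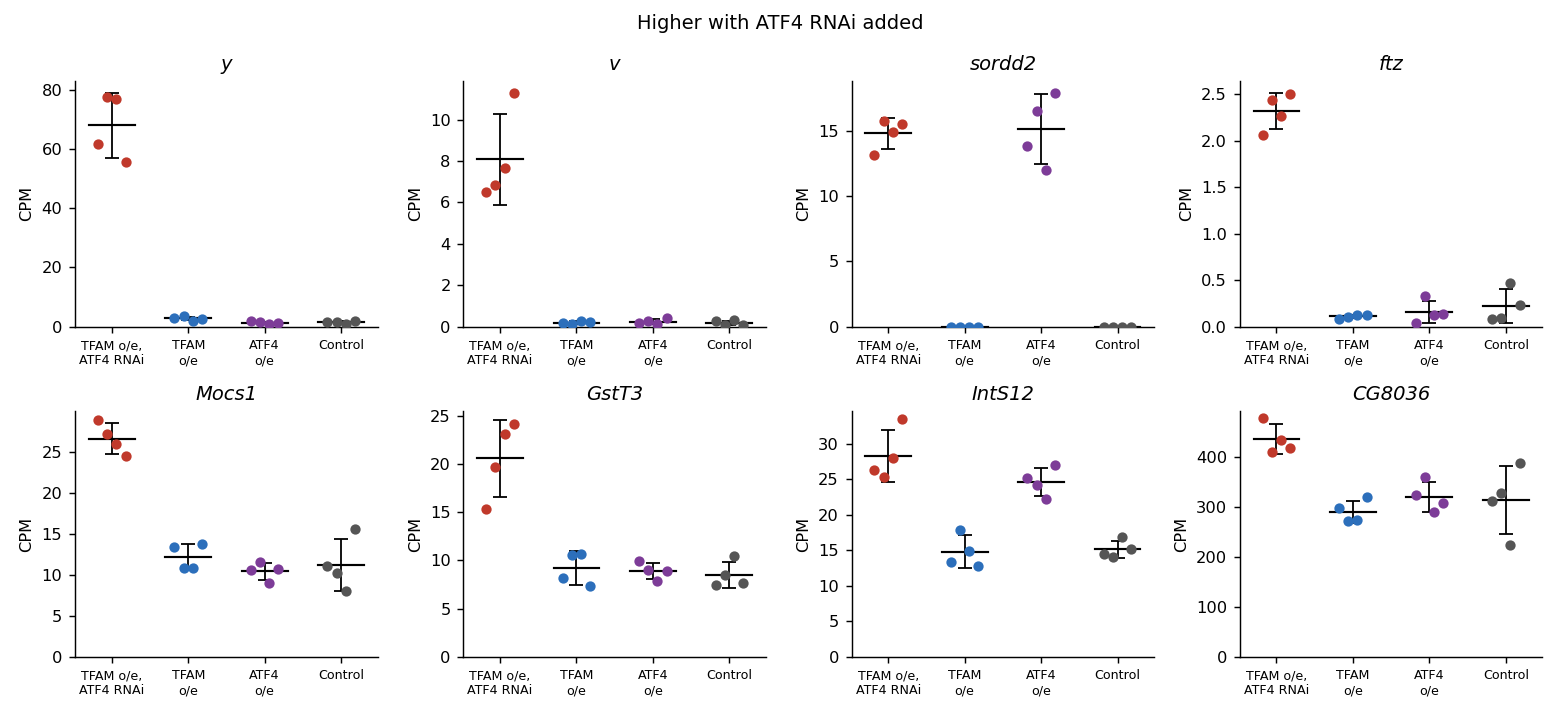
CPM (vertical axis) of y, v, sordd2, ftz, Mocs1, GstT3, IntS12 and CG8036 in the 4 libraries (points) of each genotype, with mean and SD (bars). Every ATF4 RNAi library is above every TFAM o/e and control library in each of the 8 genes, and sordd2 and IntS12 are also high in ATF4 o/e.

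In 2 genes a rise with ATF4 RNAi set a level that was low in TFAM o/e near that of control. CG6912 had 25, 22.4, 19.4 and 22.7 CPM with ATF4 RNAi, 10.3, 9.02, 10.9 and 4.47 CPM in TFAM o/e and 21, 17.4, 16.5 and 22.4 CPM in control (a log2 fold change of 1.36 and an edgeR adjusted p of 0.0415). CG9743, related to stearoyl-CoA desaturases, had 7.01, 7.32, 7.4 and 8 CPM with ATF4 RNAi, 4.56, 3.36, 3.12 and 4.18 CPM in TFAM o/e and 5.5, 6.24, 4.66 and 15.7 CPM in control (a log2 fold change of 0.96 and an edgeR adjusted p of 0.032). The TFAM o/e libraries were below all ATF4 RNAi and control libraries in both, and neither gene was called between TFAM o/e and control (edgeR adjusted p = 0.205 and 0.809). The call of CG6912 was lost without any 1 of 7 libraries and that of CG9743 without any of 6 (edgeR adjusted p of up to 0.134 and 0.123). The remaining rises, CG9377, CG9737, CG1208, CG15347 and CG9518, had log2 fold changes between 0.86 and 3.49 and were each lost without some single library.

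Some called genes lay beside each other. In the annotation, 9 of the 52 had another called gene within 50 kb (17.3%), against 5.95% of the 9352 tested genes with a position that lay within 50 kb of a called gene. CG9304 and Gr58c, 276 bases apart on 2R, both fell, as did CG10472 and CG6602, 9229 bases apart on 3L, and sordd2 and CR44383 on X both rose. CG9737, a serine protease gene on 3R, was higher at 3.61, 3.06, 2.85 and 3.82 CPM with ATF4 RNAi, against 0.904, 0.652, 1.42 and 0.752 CPM in TFAM o/e. Its neighbour CG9733, 666 bases away, was lower at 0.63, 0.786, 0.936 and 1.14 CPM with ATF4 RNAi, against 2.15, 2.26, 2.21 and 1.67 CPM in TFAM o/e. By chromosome, 36.5% of the called and 24.5% of the tested genes were on 3R, and 23.1% and 17.0% on X, with the called share first. The distance of 50 kb was chosen after the positions were seen, and no test was run on it.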

How the data were processed

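RNA-seq libraries of polyadenylated RNA (TruSeq Stranded mRNA kit) were analysed from 16 samples of 4 genotypes. Per the submitters' processing notes, the authors named FastQC 0.52, Bowtie2 2.3.4.2, featureCounts 1.6.3 and DESeq2 2.11.40.6 with the build dm6. The deposited values are raw read counts per gene, one file per library. The authors ran the counting in Galaxy with its defaults, under which featureCounts ignores strand, so that genes overlapping on opposite strands may share reads. The 17698 genes were named from Ensembl 115 (BDGP 6), which gave a symbol and length for 17560. The 38 genes of the mitochondrial genome had 0 counts in all libraries. Replicates differed beyond sampling noise (chi-square per degree of freedom of 14.4 to 152 within the 8 libraries compared and 12.7 to 368 within control). Coordinates are 1-based.

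Counts were filtered with filterByExpr, normalised by TMM and tested with edgeR 4.0.16 (quasi-likelihood, R 4.3.3) for each pair of genotypes on their own 8 libraries. Genes were called at a Benjamini-Hochberg adjusted p under 0.05 with a change of 1.2-fold or more. CPM used TMM factors of all 16 libraries. A fold against a genotype with 0 counts was computed against 3 counts per library, and ratios with up to 3 counts in a library carry an exact 95% binomial counting interval. Single values were compared by an exact permutation test (scipy 1.17.1). Alternatives were DESeq2 1.42.0, its size factors in edgeR, no filter, an FPKM of at least 1, a fit of all 16 libraries, other fold thresholds, a replicate block, the length slope as covariate and leaving out each library. The fits were checked on simulated data.

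The 25 functional and 9 marker gene lists and the libraries compared were chosen with earlier results of these data known. The rule for named genes took crc, TFAM, Ldh, Tret1-1 and Thor, called genes of a list, the 15 largest falls and 10 largest rises among called genes without overlap, and list members as examples. 1 further gene of the rule is not reported here. The other called genes were named after their values were seen.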

Additional observations from a re-analysis of the deposited data

Results flagged for a closer look

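Single libraries stood apart from the other 3 of their genotype in 9 of 130 groups of 4 examined by Dixon's test at the 95% level, where chance picks out about 1 in 20 groups. Among the ATF4 RNAi libraries, the highest value was 246 CPM for Hex-A (others 198 to 206), 252 CPM for Pfk (others 221 to 223), 81.9 CPM for AsnS (others 72.2 to 73.7) and 3.32 CPM for thw (others 1.78 to 2.01), and lncRNA:CR46123 had 0.0446 CPM (1 count) in a single library and 0 in the others. Among the control libraries, the highest value was 259 CPM for MFS3 (others 102 to 128), 15.7 CPM for CG9743 (others 4.66 to 6.24) and 0.0454 CPM for Gr58c (1 count, others 0). The lowest control library of Hsp26 had 115 CPM against 240 to 265 CPM in the others.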

How the results depend on the processing

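With ATF4 RNAi against TFAM o/e, the 52 calls (22 higher, 30 lower) became 156 (57 higher, 99 lower) with DESeq2 and 150 (57 higher, 93 lower) with the length slope as covariate, and all 52 were among both. Leaving out single libraries gave 27 to 71 calls, 11 to 28 of them higher and 16 to 43 lower. The counts that moved by over 1.5 times were those without ATF4 RNAi replicates 2, 3 and 4 (31, 27 and 31) and TFAM o/e replicate 1 (34), as well as the 13 higher calls without TFAM o/e replicate 3. Replicate numbers paired the libraries only in part (correlations of deviations of 0.615, -0.3, 0.0893 and -0.176 for numbers 1 to 4), and only number 1 correlated best with its own number. Numbers 1 and 4 did so in TFAM o/e against control (0.508 and 0.53), and 1, 2 and 3 in ATF4 RNAi against control (0.577, 0.38 and 0.398). A replicate block left 21 calls (11 higher, 10 lower) for ATF4 RNAi against TFAM o/e, with 31 lost. No called gene changed direction under any alternative, 18 kept their call in every one that tested them, 6 lost it only under the block and 28 lost it without at least 1 library. TFAM o/e against control gave 120 calls with DESeq2, 101 in the fit of all 16 libraries, 100 with the length slope and 9 with the block (17 to 26 without single libraries, with 17 without TFAM o/e replicate 1 or 3), against 28. ATF4 RNAi against control gave 128, 94 and 180 calls with DESeq2, all 16 libraries and the length slope (31 to 68 without single libraries, with 31 to 34 without ATF4 RNAi replicates 1, 3 and 4 or control replicates 1 and 2), against 53. The cause of these shifts was not tested.

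Values near 0 changed sign. TFAM between the genotypes with and without ATF4 RNAi was -0.11 on the log2 scale with the length slope and -0.12 to 0.13 without single libraries, and CG6287 was 0.0023 without the filter, 0.00061 in the fit of all 16 libraries and -0.0894 to 0.125 without single libraries. Ranges without single libraries were -0.32 to 0.11 for Nmdmc and -0.17 to 0.0016 for Arc1. The medians of 9 of the 25 functional lists changed sign in some alternative. With 3 counts at 0.119 to 0.15 CPM, differences among genes under that level were not detectable at this depth.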
